A study of Rattus norvegicus with 16 samples.

Results

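A set of 10 genes of the hypoxia-inducible factor (HIF) pathway were followed in the left ventricle of rats bred for high or low running capacity. They are the HIF alpha subunits Hif1a, Epas1 and Hif3a, the oxygen-sensing regulators Egln1, Egln3 and Vhl, and the HIF targets Car9, Ndrg1, Adm and Bnip3. The members were chosen by name, as every probe set whose symbol in the array annotation was exactly one of these. That gave 13 probe sets for the 10 genes, of 31042 probe sets and 14217 named genes tested. Epas1, Egln1 and Ndrg1 have 2 probe sets each, and the brighter of each pair by mean stands for the gene. Car9 and Ndrg1 were put on the list because they differed between the sedentary groups of this same study, so that difference is described here without a test.

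Ventricular RNA of 16 female rats, aged about 7 months, was hybridised to Affymetrix RAE 230 2.0 arrays, each rat to its own. The rats belonged to generation 16 of 2 lines that were founded from the N:NIH stock and bred by their running performance near 11 weeks, the High Capacity Runner line (HCR) and the Low Capacity Runner line (LCR). Each line gave 4 sedentary rats and 4 rats that ran uphill (25 degrees) on a treadmill for 1.5 hours on 5 days a week over 8 weeks, with intervals of 8 minutes at 85 to 90% of maximal oxygen uptake and 2 minutes at 50 to 60%. The labels name no transgene or drug in any group. The study has 1 line of each kind, so selection for running and any other difference between these lines cannot be told apart, and the sources used here do not state the time from the last run to tissue collection. The series was set up to compare the lines and the effect of training in each, which gives 7 comparisons: line in sedentary rats, line in trained rats, training in HCR, training in LCR, the difference between these training responses, and line and training each averaged over the other factor.

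In the presence of oxygen, prolyl hydroxylases of the Egln family modify HIF alpha subunits, which the von Hippel-Lindau protein then hands to a ubiquitin ligase for destruction. When oxygen is short the alpha subunits persist, pair with Arnt and switch on genes for acid handling, vessel tone, glucose use and mitochondrial turnover. This control acts mainly on the protein, so the RNA of Hif1a or Epas1 does not report HIF activity, whereas RNA of targets such as Car9, Adm and Egln3 responds to it in many tissues.

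Values are the authors' RMA expression values, read as log2 units, so a difference of 1 means a 2-fold change. They compare the same probe set between rats and are not used to rank one gene against another. The tissue is a mix of cells, so fewer cells of a type and less RNA per cell cannot be told apart. The 8 cardiomyocyte markers (such as Myh6 and Tnnt2) averaged 13.4 to 13.5 in every rat. HCR sedentary rat 5 stood apart on Xist, the non-coding RNA of the inactive X chromosome: its 4 Xist probe sets read 3.76 to 4.94 against 7.56 to 10.34 in the other 15 rats, although all rats are labelled female, and the Y-linked gene Eif2s3y was at 3.33 to 3.53 in all 16. Without that rat the sedentary line differences were -0.31 for Hif1a, 0.07 for the brighter Epas1, 0.16 for Hif3a, -0.00 for the brighter Egln1, -0.09 for Egln3 and -0.12 for Vhl, and those of the targets stand beside their own results. The training differences in HCR without it were 0.02 for Hif1a, 0.04 for Epas1, 0.01 for Hif3a, 0.14 for Egln1, 0.22 for Egln3 and 0.08 for Vhl, and -0.24 for Car9, -0.03 for Ndrg1, -0.04 for Adm and -0.23 for Bnip3. All of these come from the brighter probe set of each gene. The interquartile range of all values on an array, a measure of how spread out an array is, was 1.97 to 2.10 in sedentary HCR and 2.14 to 2.21 in sedentary LCR rats, with trained HCR at 2.06 to 2.19 and trained LCR at 2.06 to 2.27.

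In value, Car9, Ndrg1 and Adm were further apart between the lines in sedentary than in trained rats. So were Hif1a (-0.28 against 0.04), Vhl (-0.10 against 0.05) and, slightly, Hif3a (0.17 against 0.15). Epas1, Egln1, Egln3 and Bnip3 were further apart in trained rats on the brighter probe set. Over the whole array, the lines did not overlap for 18.3% of probe sets in sedentary and 3.14% in trained rats. Car9 was 1.33-fold and Ndrg1 1.27-fold higher in sedentary HCR than in sedentary LCR rats. Between trained HCR and LCR rats the same differences were 1.05-fold and 1.06-fold. Whether the line difference itself changed with training did not pass the test for Adm and was not tested for Car9 and Ndrg1, since the sedentary arrays chose them. Among the HIF subunits, Epas1 was slightly higher in all 8 HCR rats than in any LCR rat on its brighter probe set. The lines did not overlap, in either direction, for 0.383% of all probe sets. On the dimmer Epas1 probe set 1 of 8 HCR rats was above all LCR rats, and with array medians subtracted the brighter one had 3 of 8. No member passed the test between the trained lines, and none of the 8 members tested for training passed there.

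**Figure D1:**
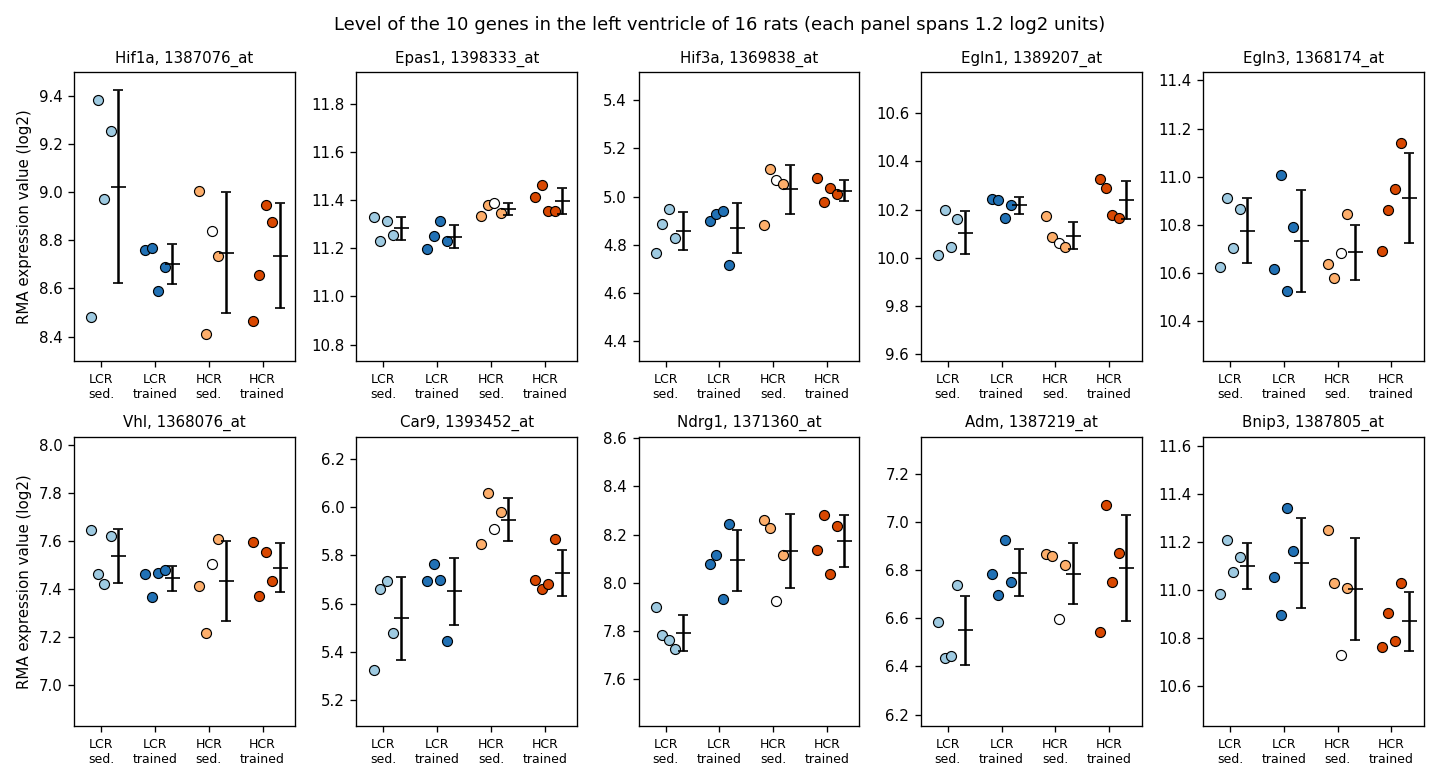
Expression values (log2) of the brighter probe set of each of the 10 genes, 1 point per rat in the 4 groups, with bars for the mean and SD (n = 4); the white point is HCR sedentary rat 5. The 4 sedentary HCR rats lie above the 4 sedentary LCR rats for Car9, Ndrg1 and Epas1. These groups do not overlap, in either direction, for 18.3% of all probe sets.

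A probe set was called where the limma fit over all 16 arrays gave an adjusted p of 0.05 or less (Benjamini-Hochberg over the 31042 probe sets). In sedentary rats 2 of the 13 member probe sets met that threshold, Car9 and the brighter Ndrg1 probe set, both higher in HCR, where 4.99% of all probe sets met it; these are the values that chose the members and nothing is read from them. The share of 4.99% itself hangs on single arrays: the 623 higher and 926 lower calls behind it were 6 and 29 without LCR sedentary rat 6, 17 and 86 without HCR sedentary rat 4, and 26 and 86 without HCR sedentary rat 5. In trained rats 0 of 13 were called, beside 0.0966% of all probe sets, and 3 of 13 had an unadjusted p under 0.05, beside 7.33%. For training in HCR 0 of 13 were called, beside 0% of all probe sets, and 2 (Egln1 and Car9) had an unadjusted p under 0.05, beside 13.9%. For training in LCR 0 were called, beside 0.00322%, with 2 (Ndrg1 and Adm) under the unadjusted threshold, beside 5.57%. The difference between the training responses of the lines gave 0 calls, beside 0%, and 9.88% of all probe sets had an unadjusted p under 0.05; the 2 member probe sets among them were Car9 and Ndrg1. Wherever these 2 genes are counted in a comparison that uses sedentary arrays, the count draws on values that chose them, and nothing is read from it. Line averaged over both training states gave 1 call, Car9, beside 3.84%, again as a description, and training averaged over both lines gave 0, beside 0.00644%, with 2 (Egln1 and Ndrg1) under the unadjusted threshold, beside 9.24%. Calls were rare or absent over the whole array in the trained and training comparisons, so 0 of 13 members is what most sets of probe sets show there. The counts of 0 were also 0 with limma's trend option, with array weights and under each other alternative.

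The middle of the member list moved little. Over the 10 genes the median line difference was 0.03 in sedentary rats and 0.06 in trained rats. It was 0.02 and 0.00 over all probe sets, and -0.02 and -0.00 over named genes. The median training difference was 0.03 in HCR and 0.01 in LCR. Over all probe sets it was -0.01 and 0.00, and over named genes 0.01 and -0.00. In sedentary rats 5 of the 10 genes were higher in HCR and 5 lower, and in trained rats 9 were higher.

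Hif1a encodes the most widely used HIF alpha subunit. In sedentary LCR rats 2, 3, 5 and 6 it read 8.48, 9.38, 8.97 and 9.25, and in trained LCR rats 1 to 4 it read 8.76, 8.77, 8.59 and 8.69. In HCR, sedentary rats 3 to 6 read 9.01, 8.41, 8.84 and 8.73 and trained rats 3 to 6 read 8.47, 8.66, 8.94 and 8.87. The sedentary LCR group held both the highest rat of the study and one of the lowest, with an SD of 0.40 against 0.08 in the trained LCR group, and every pair of groups overlapped. The training difference in LCR was -0.32 ± 0.16 (SE, 4 rats a group, limma adjusted p = 0.899) and in HCR -0.01 ± 0.16 (limma adjusted p = 0.981). The line difference was -0.28 ± 0.16 in sedentary and 0.04 ± 0.16 in trained rats (limma adjusted p = 0.991 in the latter). These intervals are wide: the one for training in LCR ran from -0.67 to 0.02.

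Epas1 encodes HIF-2 alpha, the subunit abundant in endothelial cells. Its brighter probe set (1398333_at) read 11.33, 11.38, 11.39 and 11.35 in sedentary HCR rats 3 to 6 and 11.41, 11.46, 11.35 and 11.35 in trained HCR rats 3 to 6. Sedentary LCR rats 2, 3, 5 and 6 were at 11.33, 11.23, 11.31 and 11.25, and trained LCR rats 1 to 4 at 11.20, 11.25, 11.31 and 11.23. The lowest of the 8 HCR rats thus lay above the highest of the 8 LCR rats, by 0.0039. A separation of the lines in either direction was shown by 0.383% of all probe sets and by no other member. Line differences were 0.08 ± 0.05 in sedentary and 0.15 ± 0.05 in trained rats, where the groups also did not overlap, as for 3.14% of all probe sets; the trained difference had an unadjusted p of 0.0068 and did not pass after adjustment (limma adjusted p = 0.443). With each array's median subtracted, 3 of the 8 HCR rats stayed above all LCR rats and the lines overlapped by 0.021, whereas with quantile-normalized values all 8 stayed above, by 0.039. Training differences were 0.03 ± 0.05 in HCR (limma adjusted p = 0.778) and -0.03 ± 0.05 in LCR (limma adjusted p = 0.992). The dimmer Epas1 probe set (1369703_at) did not repeat the separation: HCR rats ran from 6.46 to 7.32 and LCR rats from 6.66 to 7.22, with line differences of 0.12 ± 0.16 and 0.07 ± 0.16 in sedentary and trained rats. Its within-group SD reached 0.37, against at most 0.05 for the brighter one.

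Hif3a encodes a subunit with splice forms that restrain the other HIFs, and its probe set was dim, at percentile 19.0 of all mean levels. Sedentary HCR rats 3 to 6 read 4.88, 5.12, 5.07 and 5.05, and trained HCR rats 3 to 6 read 5.08, 4.98, 5.04 and 5.01. Sedentary LCR rats 2, 3, 5 and 6 read 4.77, 4.89, 4.95 and 4.83, and trained LCR rats 1 to 4 read 4.90, 4.93, 4.94 and 4.72. The trained lines did not overlap, as for 3.14% of all probe sets, and the sedentary ones did through HCR rat 3. Of the 8 HCR rats 7 lay above every LCR rat, a pattern whose share over all probe sets was not counted. The line difference was 0.17 ± 0.06 in sedentary and 0.15 ± 0.06 in trained rats, the latter with an unadjusted p of 0.0286 that did not pass after adjustment (limma adjusted p = 0.616). Training moved it by -0.00 ± 0.06 in HCR (limma adjusted p = 0.979) and 0.01 ± 0.06 in LCR (limma adjusted p = 0.995).

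Egln1 encodes PHD2, the main prolyl hydroxylase that marks HIF alpha for destruction. Its brighter probe set (1389207_at) read 10.17, 10.09, 10.06 and 10.04 in sedentary and 10.33, 10.29, 10.18 and 10.17 in trained HCR rats 3 to 6. In LCR it read 10.01, 10.20, 10.04 and 10.16 in sedentary rats 2, 3, 5 and 6 and 10.24, 10.24, 10.17 and 10.22 in trained rats 1 to 4. Trained rats were higher in both lines with slight overlap in each, by 0.15 ± 0.06 in HCR (unadjusted p = 0.0193, limma adjusted p = 0.291) and 0.11 ± 0.06 in LCR (limma adjusted p = 0.898). Averaged over the lines the training difference was 0.13 ± 0.04, with an interval from 0.05 to 0.22, an unadjusted p of 0.005 and a limma adjusted p of 0.368, so it did not pass. The dimmer Egln1 probe set (1375262_at) pointed the other way, at -0.13 ± 0.10 in HCR and -0.15 ± 0.10 in LCR, with trained rats at 5.99 to 6.47 and sedentary rats at 6.15 to 6.62. The lines differed by -0.01 ± 0.06 in sedentary and 0.02 ± 0.06 in trained rats on the brighter probe set (limma adjusted p = 0.978 in the latter).

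Egln3 encodes PHD3, a hydroxylase that is itself a HIF target. It read 10.64, 10.58, 10.69 and 10.85 in sedentary and 10.69, 10.86, 10.95 and 11.14 in trained HCR rats 3 to 6. In LCR it read 10.63, 10.91, 10.70 and 10.86 in sedentary rats 2, 3, 5 and 6 and 10.62, 11.01, 10.52 and 10.79 in trained rats 1 to 4. The trained HCR group had the highest mean but overlapped every other group. Training differences were 0.22 ± 0.11 in HCR (limma adjusted p = 0.367) and -0.04 ± 0.11 in LCR (limma adjusted p = 0.992), and the difference between them, 0.27 ± 0.15, did not pass (limma adjusted p = 0.565).

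Vhl encodes the von Hippel-Lindau protein, which recognises hydroxylated HIF alpha. Its group means ran from 7.44 to 7.54, and single rats from 7.22 to 7.64, both ends held by sedentary rats. All 4 groups overlapped. The line difference was -0.10 ± 0.08 in sedentary and 0.05 ± 0.08 in trained rats (limma adjusted p = 0.966 in the latter), and training differences were 0.05 ± 0.08 in HCR (limma adjusted p = 0.778) and -0.09 ± 0.08 in LCR (limma adjusted p = 0.986).

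The sequences before the start sites of 4 members are shown because HIF binds a short core, ACGTG or GCGTG, near many of its targets, and these 4 differ in whether the core is there. They are the 150 bases before the RefSeq start (build GRCr8) on the gene's own strand, 5′ to 3′, with core matches on either strand in capitals. Car9 lies at chr5:62558874-62559023 (plus strand), Adm at chr1:174180050-174180199 (plus), Bnip3 at chr1:203154963-203155112 (minus) and Egln1 at chr19:69804682-69804831 (minus).
Car9: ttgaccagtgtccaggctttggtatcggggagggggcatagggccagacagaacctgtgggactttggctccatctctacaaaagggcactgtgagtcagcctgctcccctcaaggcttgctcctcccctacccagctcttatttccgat
Adm: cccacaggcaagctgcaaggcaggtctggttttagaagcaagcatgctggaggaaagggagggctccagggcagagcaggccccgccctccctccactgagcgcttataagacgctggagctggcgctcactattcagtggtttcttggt
Bnip3: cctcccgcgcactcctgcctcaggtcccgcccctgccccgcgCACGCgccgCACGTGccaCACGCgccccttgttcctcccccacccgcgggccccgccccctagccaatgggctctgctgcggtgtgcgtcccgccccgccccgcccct
Egln1: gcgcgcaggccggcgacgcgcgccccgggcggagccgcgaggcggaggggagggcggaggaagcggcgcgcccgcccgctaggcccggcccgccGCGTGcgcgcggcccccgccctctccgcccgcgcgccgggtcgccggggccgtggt
Bnip3 held 4 matches, starting 108 to 90 bases before the start, among them a CACGTG that reads as ACGTG on both strands, and Egln1 held 1, 56 bases before it. The windows of Car9 and Adm held no such letters, which says nothing about binding elsewhere at these genes. The tables held windows for 9 of the 10 genes (10 windows, 2 for Hif3a), and Ndrg1 had no entry. Searched over 250 bases before the start, 4 of these 10 windows held either core and 2 held ACGTG, against 36.7% and 16.6% of all 33469 windows.

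Car9 encodes carbonic anhydrase 9, a membrane enzyme that acidifies the space outside the cell and is a standard marker of HIF activity. Sedentary HCR rats 3 to 6 read 5.85, 6.06, 5.91 and 5.98, and sedentary LCR rats 2, 3, 5 and 6 read 5.32, 5.66, 5.69 and 5.48. In trained rats HCR 3 to 6 read 5.70, 5.66, 5.68 and 5.87, and LCR 1 to 4 read 5.69, 5.77, 5.70 and 5.45. As for 18.3% of all probe sets, counted in either direction, the sedentary lines did not overlap: the 4 HCR rats were above all 4 LCR rats. The trained lines overlapped. The sedentary difference was 0.41 ± 0.09 (interval 0.23 to 0.59) and 0.42 without HCR sedentary rat 5. In trained rats, which played no part in choosing the gene, it was 0.08 ± 0.09, with an interval from -0.11 to 0.26 (limma adjusted p = 0.934). Car9 was lower in trained than in sedentary HCR rats by 0.22 (-0.22 ± 0.09) and higher in trained than in sedentary LCR rats by 0.11 ± 0.09, which gives a difference between the lines' training responses of -0.33 ± 0.12. These last 3 values share the arrays that chose Car9 and are descriptions. The probe set was dim, with a mean of 5.72 at percentile 44.8, below the median brightness of all probe sets.

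Ndrg1 encodes a stress-responsive cytosolic protein induced by hypoxia and abundant in Schwann cells. The brighter probe set (1371360_at) read 8.26, 8.23, 7.92 and 8.12 in sedentary and 8.14, 8.28, 8.04 and 8.23 in trained HCR rats 3 to 6. Sedentary LCR rats 2, 3, 5 and 6 were at 7.90, 7.78, 7.76 and 7.73, and trained LCR rats 1 to 4 at 8.08, 8.12, 7.93 and 8.25. The sedentary LCR group lay below each of the other 3 groups without overlap, its highest rat just under HCR sedentary rat 5. For training in LCR, 2.82% of all probe sets had groups that did not overlap, and Ndrg1 was the 1 member probe set among them; for training in HCR the share was 8.00%, with 0 of the 13. The sedentary line difference was 0.34 ± 0.08 (interval 0.17 to 0.51), or 0.41 without HCR sedentary rat 5, and the training difference in LCR was 0.30 ± 0.08, against 0.04 ± 0.08 in HCR. Both of the former use the low sedentary LCR arrays and are given without a test. In trained rats the line difference was 0.08 ± 0.08, with an interval from -0.09 to 0.25 (limma adjusted p = 0.921).

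The dimmer Ndrg1 probe set (1391458_at) gave smaller values in the same direction for the line. It read 6.62, 6.73, 6.67 and 6.49 in sedentary HCR and 6.46, 6.49, 6.43 and 6.35 in sedentary LCR rats, meeting at a pair of rats near 6.49. Its line difference was 0.20 ± 0.08 in sedentary and 0.08 ± 0.08 in trained rats (limma adjusted p = 0.909 in the latter). The training difference in LCR was 0.08 ± 0.08 on this probe set, and trained LCR rats at 6.40 to 6.72 overlapped the sedentary ones, so the separation by training in LCR was seen on 1 of the 2 Ndrg1 probe sets.

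Because Ndrg1 is abundant in Schwann cells, markers of these cells were set beside it. Of 8 listed, 6 were on the array (Mbp, S100b, Sox10, Mag, Prx and Pmp22), 3 of them below the median brightness of all probe sets, and 0 were called. Their mean level was 6.44 to 6.51 in sedentary HCR and 6.31 to 6.38 in sedentary LCR rats, with no overlap, and 6.29 to 6.47 and 6.29 to 6.44 in trained HCR and LCR rats. Fibroblast markers went the other way, at 8.66 to 8.91 in sedentary HCR and 8.91 to 9.10 in sedentary LCR rats, and 1 of the 8, the proteoglycan gene Lum, was called (-0.41 ± 0.11, limma adjusted p = 0.0403), a call that held in 17 of 25 alternatives. Markers of mesothelium, of which 6 of 7 were below the median brightness, were at 5.32 to 5.44 and 5.28 to 5.39. All 6 smooth muscle and pericyte markers had higher values in sedentary HCR, at mean levels of 7.42 to 7.69 against 7.30 to 7.59, and the actin gene Acta2 was called (0.35 ± 0.09, limma adjusted p = 0.0421), a call that held in 16 of 25 alternatives and, averaged over training states, in 23 of 24. Adipocyte markers had 4 of 6 below the median brightness and 0 called. Their mean level was 6.55 ± 0.05 in sedentary HCR and 6.43 ± 0.02 in sedentary LCR rats (SD, n = 4), without overlap. A separation of these groups, in either direction, was shown by 18.3% of all single probe sets. The share for means over several markers was not counted. Array medians were also higher in all 4 sedentary HCR rats than in any sedentary LCR rat. The part of that shift in the Schwann cell and adipocyte marker levels was not tested. Endothelial, macrophage, lymphocyte, red blood cell and atrium markers overlapped in mean level between the sedentary lines. Of these lists, the lymphocyte gene Klrd1 was called lower in sedentary HCR, a call that held in 18 of 24 alternatives. Averaged over training states Klrd1 was called lower, and the lymphocyte gene Cd79b and the atrium gene Nppa higher, in HCR. Those calls held in 22 of 23, 22 of 23 and 23 of 24 alternatives. The part of these cell types in the differences of Car9 and Ndrg1 was not tested.

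Adm encodes adrenomedullin, a secreted peptide that widens vessels and is induced by hypoxia and by stretch. Sedentary HCR rats 3 to 6 read 6.87, 6.86, 6.60 and 6.82, and sedentary LCR rats 2, 3, 5 and 6 read 6.59, 6.43, 6.45 and 6.74. Trained HCR rats 3 to 6 read 6.54, 7.07, 6.75 and 6.87, and trained LCR rats 1 to 4 read 6.79, 6.70, 6.93 and 6.75. Of the sedentary HCR rats 3 were above all sedentary LCR rats, and HCR rat 5 lay among the LCR values. The line difference was 0.24 ± 0.10 in sedentary rats, 0.30 without HCR rat 5, and 0.02 ± 0.10 in trained rats (limma adjusted p = 0.991). Training in LCR gave 0.24 ± 0.10, with overlap through LCR sedentary rat 6 and an unadjusted p of 0.03 that did not pass (limma adjusted p = 0.834); training in HCR gave 0.02 ± 0.10 (limma adjusted p = 0.936). The difference between these training responses was -0.22 ± 0.14 (limma adjusted p = 0.603).

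Bnip3 encodes a mitochondrial outer membrane protein that promotes mitophagy and is induced by HIF. It read 11.25, 11.03, 10.73 and 11.01 in sedentary and 10.76, 10.90, 10.79 and 11.03 in trained HCR rats 3 to 6. In LCR it read 10.98, 11.21, 11.07 and 11.14 in sedentary rats 2, 3, 5 and 6 and 11.05, 10.90, 11.34 and 11.16 in trained rats 1 to 4. Unlike the other 3 targets it was lower in HCR, by 0.24 in trained rats (-0.24 ± 0.11, or 0.845-fold), where the groups overlapped through HCR rat 6 and LCR rat 2. That difference had an unadjusted p of 0.0343 and did not pass (limma adjusted p = 0.631). In sedentary rats the difference was -0.10 ± 0.11, and it was -0.01 without HCR rat 5, whose Bnip3 value was the lowest of its group. Training differences were -0.13 ± 0.11 in HCR (limma adjusted p = 0.567) and 0.01 ± 0.11 in LCR (limma adjusted p = 0.996).

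**Figure D2:**
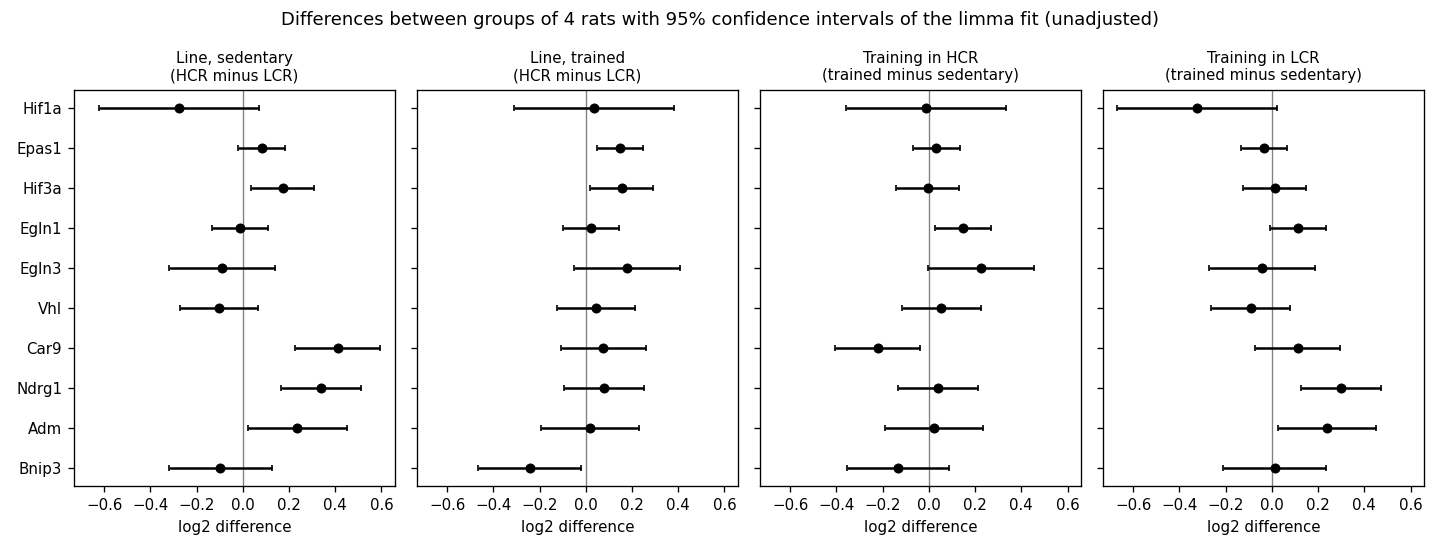
Differences between groups of 4 rats (log2) for the brighter probe set of each gene, with unadjusted 95% confidence intervals of the limma fit: line in sedentary rats, line in trained rats, training in HCR and training in LCR. Car9 and Ndrg1 stand away from 0 in the first panel, at 0.41 and 0.34, and lie at 0.08 each in the second. The sedentary difference of the first panel chose both genes, so their values and intervals there are a description without a test. Whether their line difference changed with training was not tested.

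The level of Car9 moved with the spread of the arrays. Across the 16 rats Car9 was lower where the interquartile range of the array was larger (Pearson r = -0.83, Spearman rho = -0.83). Car9 was chosen for a difference between the sedentary groups, and the range also separates those groups, so these values are a description and carry no test. Without the 2 arrays farthest from the median range r was -0.77, and within the 4 groups, after subtracting group means, it was -0.62. Hif3a showed r = -0.69 (permutation p = 0.0033, adjusted 0.0165 over the 10 genes) and rho = -0.59 (permutation p = 0.018, adjusted 0.0898), with r = -0.56 without the 2 farthest arrays and -0.61 within groups. For Ndrg1, also a description, r was -0.22 and rho -0.15. With the interquartile range as a covariate in the fit, chosen after seeing the data, the sedentary line difference was 0.21 for Car9, 0.05 for Hif3a and 0.43 for Ndrg1. With quantile-normalized values, which give all arrays the same spread, it was 0.35, 0.10 and 0.46.

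**Figure D3:**
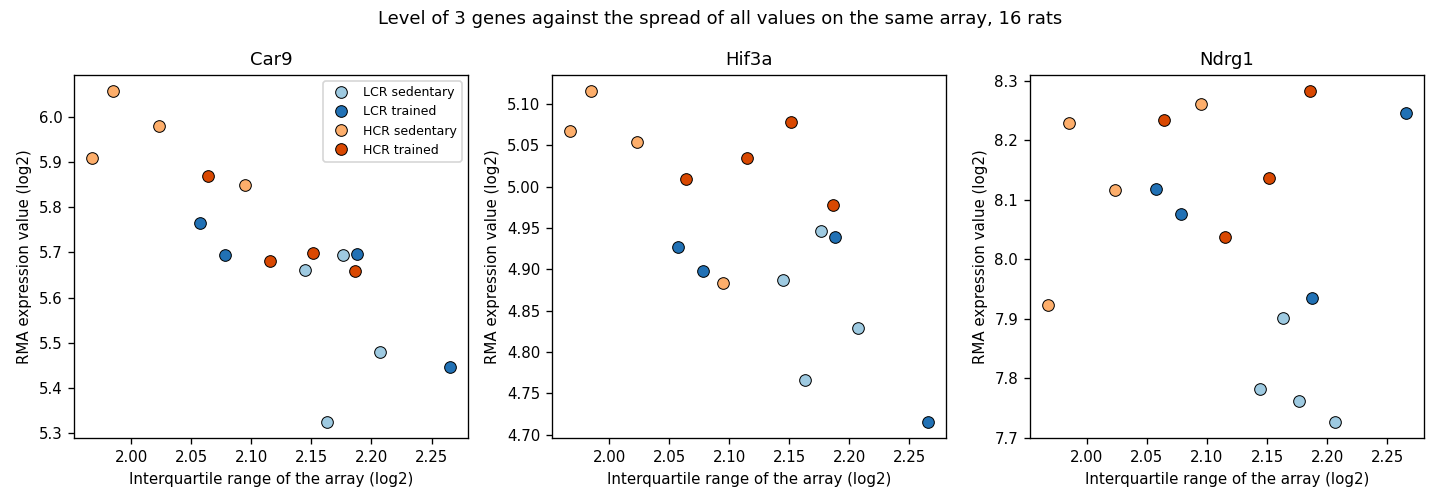
Expression value (log2) of Car9, Hif3a and Ndrg1 against the interquartile range of all values on the same array (log2), 1 point per rat coloured by group. Car9 and Hif3a fall from left to right (r = -0.83 and -0.69), while Ndrg1 does not follow the range (r = -0.22).

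**Figure D4:**
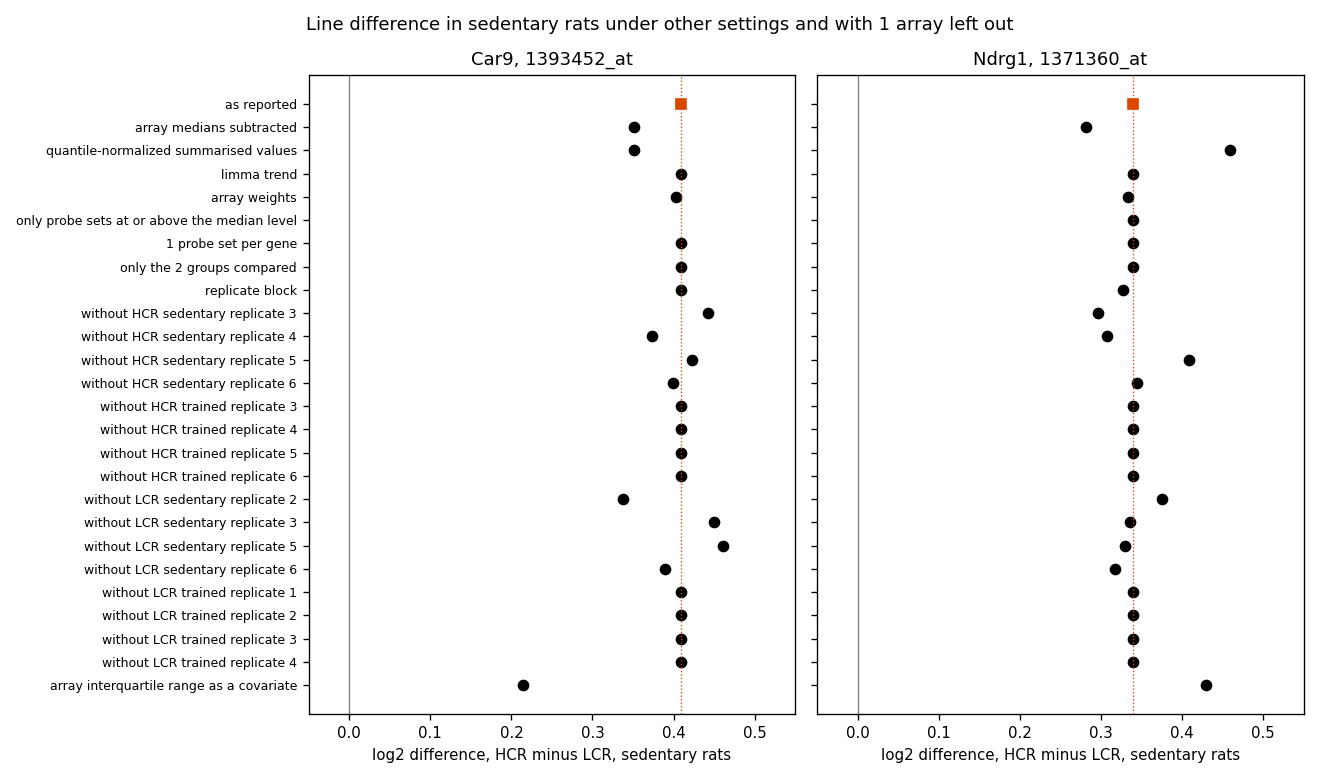
Sedentary line difference (log2, HCR minus LCR) of Car9 and Ndrg1 as reported (square) and under each other setting or with 1 array left out (circles). This difference chose both genes, so every value shown is a description without a test. Every value is above 0, from 0.21 to 0.46 for Car9 and from 0.28 to 0.46 for Ndrg1; Car9 has none for the setting limited to brighter probe sets, which its own probe set did not enter.

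Across rats the members did not form one block. Of the 45 pairs of genes, 22 had a positive correlation over the 16 rats, the highest being Car9 with Hif3a (r = 0.81, rho = 0.71). The sedentary arrays chose Car9, so this r and rho are a description without a test. Within groups r was 0.79 (adjusted permutation p = 0.0167), the 1 pair that passed there. For the within-group p, values less their group mean were shuffled over all 16 rats, not within groups, so it can be too small. Over all groups without the 2 farthest arrays r was 0.68 and did not pass (adjusted permutation p = 0.131). The within-group value was not recomputed without those 2 arrays. Both genes also moved with the spread of the arrays, as given above, and the part of that spread in their correlation was not tested. Ndrg1 with Adm, for Ndrg1 again a description, and Epas1 with Hif3a (adjusted permutation p = 0.0967) each had r = 0.65 over the 16 rats. Within groups these were 0.33 and 0.17 (adjusted permutation p = 0.825 and 0.864). Car9 belongs to the pair that passed and was itself chosen for a group difference, which the within-group value leaves out.

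The genes most like 4 of the members, by Pearson r over the 16 rats among 14216 other named genes, are given as a description. For Car9 they were Muc5b (0.92), Prl3b1 (0.91), Cbln1 (0.91), Nrg1 (0.90) and Cdca2 (0.90), whose mean levels were 5.22 to 6.38. Closest to Ndrg1 were Rassf4 (0.87), Pvr (0.86), Cald1 (0.85), Cyp4v3 (0.84) and Itgb1 (0.83), with within-group r of 0.64 to 0.78. Egln3 was followed by Ubl4a (0.86), G6pc3 (0.85), Tcta (0.81), Nsun4 (0.80) and Asph (0.80), and Adm by Myoz2 (0.79), Masp1 (0.79), Pik3r1 (0.78), Cenpp (0.77) and Prap1 (0.77). No other member was among the 5 genes most like any of these 4.

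The rest of the HIF machinery and 64 other HIF targets were read from lists set up beside the members. Of 16 other regulators measured, among them the partner Arnt, the hydroxylase Egln2 and the ligase subunits, 1 was called in sedentary rats: Eloc, the elongin C subunit of the Vhl ligase, was lower in HCR (-0.24 ± 0.06, limma adjusted p = 0.0381), against 4.99% of all probe sets. Of the others 11 had lower and 4 higher values in HCR. The list's median was -0.14, against -0.02 over named genes and 0.02 over all probe sets. With 1 probe set per gene, as this list was read, 424 of 14217 genes were called higher and 830 lower in HCR. Averaged over training states those counts were 319 and 721. Averaged over training states Eloc (-0.18 ± 0.04, limma adjusted p = 0.0363), Rbx1, the RING subunit of the same ligase (-0.16 ± 0.04, limma adjusted p = 0.0379), and the autophagy receptor gene Sqstm1 (-0.26 ± 0.07, limma adjusted p = 0.0485) were lower in HCR, where 3.84% of all probe sets were called. These 3 calls held in 12, 10 and 8 of 24 alternatives: all 3 ended with quantile-normalized values (adjusted p from 0.0845 to 0.124) and without HCR sedentary rat 4 or 5, HCR trained rat 6, LCR sedentary rat 5 or 6 or LCR trained rat 1 or 4 (adjusted p from 0.055 to 0.1). In trained rats and for training in either line 0 of 16 were called.

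Among the other targets 5 of 64 were called in sedentary rats, beside 4.99% of all probe sets. The targets were read with 1 probe set per gene. A fit limited in that way called 424 of 14217 genes higher and 830 lower in HCR. The 1 target called higher in HCR was the placental growth factor gene Pgf (0.28 ± 0.07, limma adjusted p = 0.0463), and the other 4 targets were lower. Ddit4, an inhibitor of mTOR complex 1 induced by stress, differed most: sedentary HCR rats 3 to 6 read 7.58, 7.26, 7.31 and 7.24 and sedentary LCR rats 2, 3, 5 and 6 read 8.38, 7.86, 8.04 and 8.48, a difference of -0.85 ± 0.16 (limma adjusted p = 0.0201). The others were the histone demethylase gene Kdm3a (-0.36 ± 0.09, limma adjusted p = 0.0374), the transcriptional repressor gene Bhlhe41 (-0.39 ± 0.11, limma adjusted p = 0.0465) and the cyclin G2 gene Ccng2 (-0.47 ± 0.13, limma adjusted p = 0.0473). The call of Ddit4 ended without HCR sedentary rat 4 or 5 or LCR sedentary rat 6 (adjusted p from 0.0612 to 0.071). Calls of Eloc, Pgf, Kdm3a, Bhlhe41 and Ccng2 each ended without HCR sedentary rat 4, 5 or 6 or LCR sedentary rat 3, 5 or 6 (adjusted p from 0.0544 to 0.135), while their direction stayed, and with quantile-normalized values (adjusted p from 0.0785 to 0.11). In all, those calls held in 17, 11, 16, 12 and 11 of 25 alternatives. The smallest values of Pgf, Bhlhe41 and Ccng2 were 0.09, -0.12 and -0.12, with the array interquartile range as a covariate.

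By function, 0 of 19 glucose and pH genes were called in sedentary rats, the largest differences being in the phosphofructokinase gene Pfkp (-0.37 ± 0.11, limma adjusted p = 0.0558) and the hexokinase gene Hk2 (-0.34 ± 0.11, limma adjusted p = 0.0643). Averaged over training states, the fit limited to 1 probe set per gene called 319 of 14217 genes higher and 721 lower in HCR. In the fit over all probe sets 4 of the 64 targets were called, beside 3.84% of all probe sets, all lower in HCR. They were Pfkp (-0.39 ± 0.08, limma adjusted p = 0.013), Hk2 (-0.34 ± 0.07, limma adjusted p = 0.0228), Ddit4 (-0.54 ± 0.12, limma adjusted p = 0.0217) and Ccng2 (-0.35 ± 0.09, limma adjusted p = 0.0451). Those calls held in 23, 22, 22 and 10 of 24 alternatives, that of Hk2 ending without HCR sedentary rat 4 (adjusted p = 0.0525). The 18 vessel and oxygen genes had a median of 0.10 in sedentary rats, and the 27 genes of mitochondria, matrix and stress a median of -0.11 with the 4 lower calls above. Over all 64 targets the median was -0.03 in sedentary and -0.01 in trained rats, against -0.02 and -0.00 over named genes. In trained rats 0 of 64 were called, and the largest differences were in Hmox1 (-0.43 ± 0.18, limma adjusted p = 0.6) and Pfkp (-0.41 ± 0.11, limma adjusted p = 0.241).

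Training moved none of these targets past the threshold. In HCR 46 of 64 were higher after training with a median of 0.07, against 0.01 over named genes, and 0 were called; the largest were Kdm3a (0.35 ± 0.09, limma adjusted p = 0.199) and Stc1, a secreted glycoprotein gene (-0.33 ± 0.13, limma adjusted p = 0.295). In LCR 31 of 64 were higher with a median of -0.00, again with 0 calls, and the largest differences were in the heme oxygenase gene Hmox1 (0.58 ± 0.18, limma adjusted p = 0.62) and Ddit4 (-0.49 ± 0.16, limma adjusted p = 0.663).

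**Figure D5:**
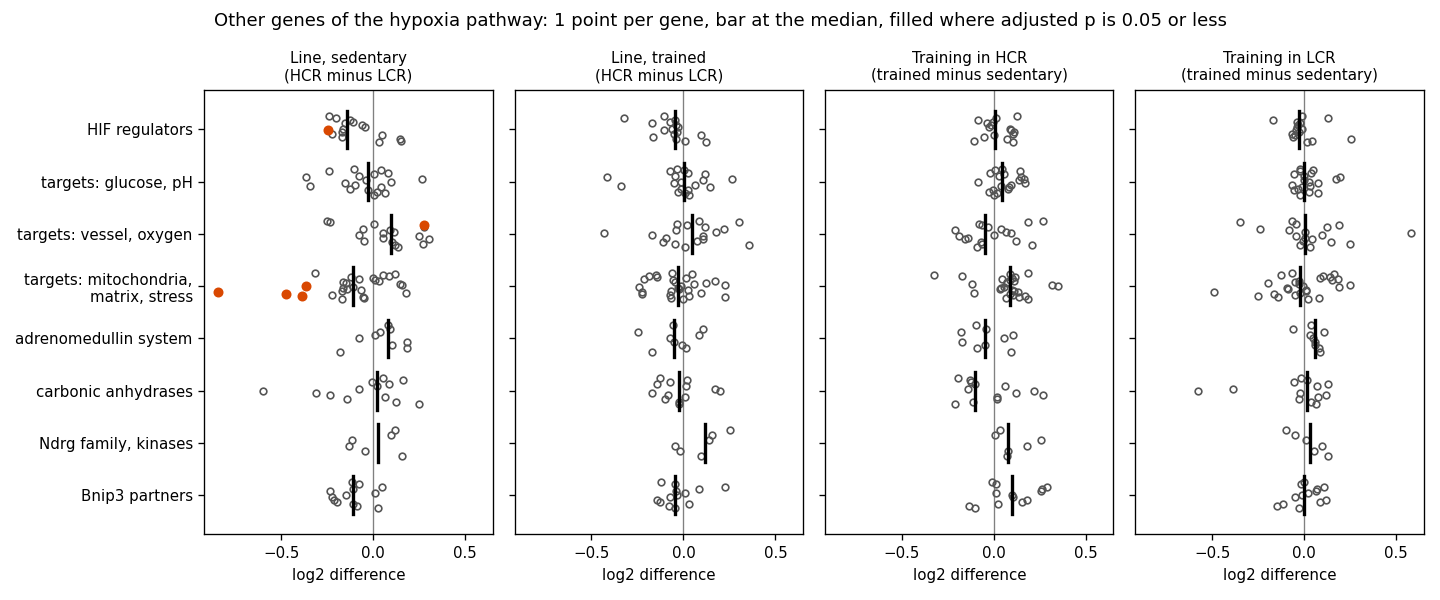
Log2 differences of the other pathway genes by list, 1 point per gene and a bar at the median, filled where the limma adjusted p is 0.05 or less, for the 2 line and 2 training comparisons. Filled points occur in the sedentary line comparison alone, with Ddit4 farthest out at -0.85.

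The relatives and partners of the 4 target genes gave 0 calls in each of the 7 comparisons. Of 13 other carbonic anhydrases the largest sedentary line differences were in Car3 (-0.60 ± 1.34, limma adjusted p = 0.789), which varied widely between rats, and Car2 (-0.31 ± 0.17, limma adjusted p = 0.237). Among 6 genes of the Ndrg family and its kinases they were in Gsk3b (0.16 ± 0.18, limma adjusted p = 0.589) and Ndrg3 (-0.13 ± 0.07, limma adjusted p = 0.224). In the adrenomedullin system, of 9 genes, the receptor gene Calcrl differed by 0.19 ± 0.06 (limma adjusted p = 0.0665) and Calca by 0.18 ± 0.08 (limma adjusted p = 0.171). Of 13 mitophagy partners of Bnip3, Gabarapl1 differed by -0.23 ± 0.11 (limma adjusted p = 0.164) and Bnip3l, the closest relative of Bnip3 and also on the target list, by -0.22 ± 0.09 (limma adjusted p = 0.116). The medians of these 4 lists in sedentary rats were 0.02, 0.03, 0.08 and -0.11, and those of the carbonic anhydrases and the Ndrg family turned to -0.04 and -0.03 when array medians were subtracted.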

How the data were processed

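The values the authors deposited, read here as log2, are log-transformed RMA summaries, as the design text describes; RMA and limma are also listed, unversioned, in the submitters' processing notes. Perfect-match probes were background-corrected, quantile-normalized and summarised per probe set. The base of the logarithm was not stated; log2 was taken from the range of the deposited values, 3.24 to 14.54. Quantile normalization acted on probes, so summarised values can still differ in spread between arrays, and differences near background are compressed. Of 31099 probe sets 57 controls were left out and 31042 tested without a filter: 20826 had 1 symbol in the platform annotation, 436 several and 9780 none listed.

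Groups and rat numbers came from the sample titles, so replicates are separate animals, 4 per group, which limits the precision. The fit per probe set used R 4.3.3 with limma 3.58.1 (functions lmFit, contrasts.fit and eBayes; 1 mean per group, 16 arrays, 12 residual degrees of freedom, two-sided), adjusted over all probe sets within a comparison and called at 0.05. A value after ± is the standard error from the fit, and intervals are 95%, unadjusted. The fit was tested on simulated data. Correlations used 100000 permutations (two-sided, scipy 1.17.1). Alternatives were other scalings, trend, array weights, a brightness filter, 1 probe set per gene, fewer groups in the fit, a replicate block, each array left out, and the array interquartile range as a covariate.

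The members and lists were chosen with earlier results of these data known, Car9 and Ndrg1 by their sedentary line difference; for all members the sedentary and the averaged line difference are descriptions, and for Car9 and Ndrg1 every comparison with sedentary arrays. Named besides the members were, per list and comparison described, up to 4 called genes or the 2 of largest difference, and the 5 genes most correlated with Car9, Ndrg1, Egln3 and Adm. Of 216 listed symbols 194 matched. Start sites and sequences are from RefSeq tables of build GRCr8.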

Additional observations from a re-analysis of the deposited data

Results flagged for a closer look

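A rat stood far from the other 3 of its group in 3 of 60 groups of 4 examined. These covered the member probe sets, the array interquartile range and the brightest Xist probe set, and chance gives about 1 in 20. For Vhl, trained LCR rat 2 was lowest at 7.37, with the others at 7.46 to 7.48. For Adm, HCR sedentary rat 5 was lowest at 6.60, with the others at 6.82 to 6.87. The brightest Xist probe set read 4.94 in HCR sedentary rat 5, with the others of its group at 9.08 to 9.87. That same rat was thus the low one for both Adm and Xist; a link between these values was not tested.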

How the results depend on the processing

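Of 2201 member values recomputed under other settings or without 1 array, 2095 stayed the same, 106 moved and 0 called values turned sign. For values described without a test, the same meant within 1 within-group SD of the reported value, where an uncalled value could change sign. For the tested values it meant the same sign and the same side of the threshold, with no limit on size. The sedentary line comparison had 2 called member probe sets; it had 1 with array medians subtracted (Ndrg1 lost, 0.28), 1 among probe sets at or above the median brightness (Car9 not tested there) and 0 with the interquartile range as a covariate, chosen after seeing the data. Leaving out 1 array gave 0 to 2, with fewer than 2 without HCR sedentary rat 3, 4, 5 or 6 or LCR sedentary rat 3, 5 or 6. Car9 kept its call in 19 of 24 alternatives and Ndrg1 in 17 of 25. That difference chose both genes, so these counts are a description and nothing is read from them. The averaged line comparison had 1 called; it had 2 with quantile-normalized values, 3 with array weights, 3 with 1 probe set per gene, 0 with the covariate, and 0 to 3 with 1 array left out: 0 without HCR sedentary rat 4 or 6, HCR trained rat 5 or 6, LCR sedentary rat 6 or LCR trained rat 3 or 4, 2 without HCR sedentary rat 3 and 3 without LCR trained rat 2. Within groups 1 correlation of members was called, and over all groups without the 2 farthest arrays 0 were. In the averaged line comparison 2 were called with the rat number as a replicate block. That block gave 1353 higher and 1647 lower calls array-wide in the sedentary line comparison. Same-numbered arrays of different groups correlated in their deviations above 0.1 in 6 of 16 pairs (-0.23 to 0.34, mean 0.06). The mean was -0.01 over the other 80 pairs, and 5 of 16 arrays correlated best with their own number. Whether a shared number marks a shared batch was not tested. Array-wide, sedentary HCR rats had 623 higher and 926 lower calls, 298 and 2162 with array medians subtracted, 224 and 319 quantile-normalized, 1 and 1 with the covariate; averaged over training the counts were 450 and 741, 283 and 1496, 322 and 401, and 20 and 26. The causes of these changes were not tested. Leaving out 1 array gave from 6 to 865 higher and from 29 to 1129 lower calls over all probe sets in sedentary rats, and from 180 to 1148 and from 339 to 1427 averaged over training. The 4 arrays a group limit the precision, as the intervals show.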
